A study of Mus musculus with 4 samples.

Results

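The Ms4a cluster of mouse chromosome 19 was followed through 9 of its genes: *Ms4a1*, *Ms4a7*, *Ms4a4c*, *Ms4a4b*, *Ms4a6b*, *Ms4a4d*, *Ms4a6d*, *Ms4a2* and *Ms4a3*, in their order along the chromosome. They were taken from the mm9 annotation as a list of symbols, and all 9 were found there. The list was drawn up with earlier results of these data known, and the 8 Ms4a genes it leaves out include the 2 Ms4a genes in no LAD and the 3 with bases in a KO LAD. They are 9 of the 17 Ms4a genes of chromosome 19, of its 724 protein-coding genes, and of 22367 protein-coding genes in all. Their positions were compared between lamina-associated domains (LADs, stretches of chromatin in contact with the nuclear lamina) of wild-type (WT, *Tm7sf2*+/+) and *Tm7sf2*-/- (KO) hepatocytes.

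Primary hepatocytes were taken from mice of 12 to 16 weeks on a C57BL/6 background and were infected for 24 h with a lentivirus for Dam fused to LaminB1, or for Dam alone as the control. Dam is a bacterial enzyme that methylates the adenine of GATC, so that DNA near a Dam-LaminB1 fusion at the nuclear envelope is marked. There were 4 libraries, 1 for each construct in each genotype, and each was made from the pooled DNA of 4 mice. The groups were therefore WT with Dam-LaminB1, WT with Dam only, KO with Dam-LaminB1 and KO with Dam only, and the mice of both genotypes carried no other allele named in the labels. A LAD list stood for 1 pooled library pair, so a difference between genotypes has no replicate check here, no test was run, and no spread between mice can be given. The read depth behind each LAD is not given in the lists used here. The study's text gives fewer usable reads for the KO than for the WT, so depth and genotype cannot be told apart in any WT-only call.

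The lists held 8107 WT LADs and 16076 KO LADs, of which 242 and 404 lay on chromosome 19. Differential regions (DRs) were stretches of at least 10 kb left when the LADs of one genotype were subtracted from those of the other. There were 7787 WT-only DRs, 370 of them on chromosome 19, and 8208 KO-only DRs, 92 of them on chromosome 19. A gene was called PI (periphery to interior) where a WT-only DR covered at least 1 base of its span, IP where a KO-only DR did, and AMB where both did. The remaining genes were PP where a LAD of each genotype touched the span, and II otherwise. WT LADs of chromosome 19 lost 60.8% of their bases in the KO, against 12.1% over the other chromosomes, so values for the cluster are set beside those of chromosome 19 throughout. *Tm7sf2* itself lies on chromosome 19 (6062821 to 6068373, minus strand), 5.26 Mb to the left of the cluster. It was II, and LAD lists carry no check of its deletion.

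The Ms4a genes encode small proteins that cross the membrane several times, most of them in blood cells. The family arose by repeated duplication of neighbouring genes, and the copies still stand side by side. MS4A1 is CD20, the surface protein of B cells that therapeutic antibodies bind. MS4A2 is the beta chain of the high-affinity receptor for IgE on mast cells and basophils. Hepatocytes are not known for these proteins, and long silent gene clusters are a common content of LADs. LAD lists say where a gene lies and nothing about its transcription, so neither the level of these genes nor the purity of the hepatocytes could be read from them.

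DamID sees the genome only at GATC, and each DR over the cluster began and ended at one. The windows of 30 bases around the 6 borders of the 3 WT-only DRs over the members are shown. At these points the LAD lists of the genotypes part, and the lists give no error for them. They are read 5′ to 3′ on the plus strand of NCBIM37 (mm9), with GATC in capitals.
left DR, left border (KO LAD edge), chr19:11323694-11323723: ttttgaagttgcaGATCtctgtcttgtctt
left DR, right border (WT LAD edge), chr19:11408997-11409026: tggatttcgaattGATCtttgttgctaagt
middle DR, left border (KO LAD edge), chr19:11442680-11442709: aactaatgagagtGATCagattcctctatc
middle DR, right border (WT LAD edge), chr19:11567761-11567790: cccccccccacctGATCatgtttctctttt
right DR, left border (WT LAD edge), chr19:11604609-11604638: gcttttatgcacaGATCaagtcctcagtgg
right DR, right border (KO LAD edge), chr19:11726286-11726315: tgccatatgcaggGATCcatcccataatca
All 6 borders held GATC, as did all 740 borders of the 370 WT-only DRs of chromosome 19 (100%). LADs were called on fragments that end at GATC, so this follows from the method and is no trait of these borders. Of the 6, 3 were edges of a WT LAD and 3 were edges of a KO LAD. The right border of the left DR fell in untranslated sequence of *Ms4a7* and the left border of the right DR in that of *Ms4a6b*. The right border of the middle DR fell in an intron of *Gm8369* and the last border in an intron of *Plac1l*. The other two, both KO LAD edges, lay between genes.

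All 9 members were PI, and no base of any member lay in a KO LAD as listed. The lists give no error for a LAD edge, and the nearest KO LAD edge was 0.944 kb from *Ms4a1*. PI calls were made for 5.43% of all protein-coding genes and 14.9% of those of chromosome 19. PI calls with no KO LAD base in the span were made for 2.08% of all genes and 10.4% of chromosome 19. Of the 9 members, 7 lay wholly in a WT-only DR, against 1.24% of all genes and 6.91% of chromosome 19. The same 7 members had their transcription start in a WT-only DR, against 2.23% and 8.29%. With at least 50% of the span required in a WT-only DR, 8 of 9 members were PI, against 2.23% of all genes and 10.8% of chromosome 19. Of the 8 Ms4a genes left out of the list, 6 were PI, and 6 were PI with at least 50% of the span required. Only 3 of those 8 were PI with no KO LAD base, 3 lay wholly in a WT-only DR, and 3 had their start in one. Neighbouring genes share a LAD, so the 9 members rest on 3 DRs and are not 9 separate observations.

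**Figure D1:**
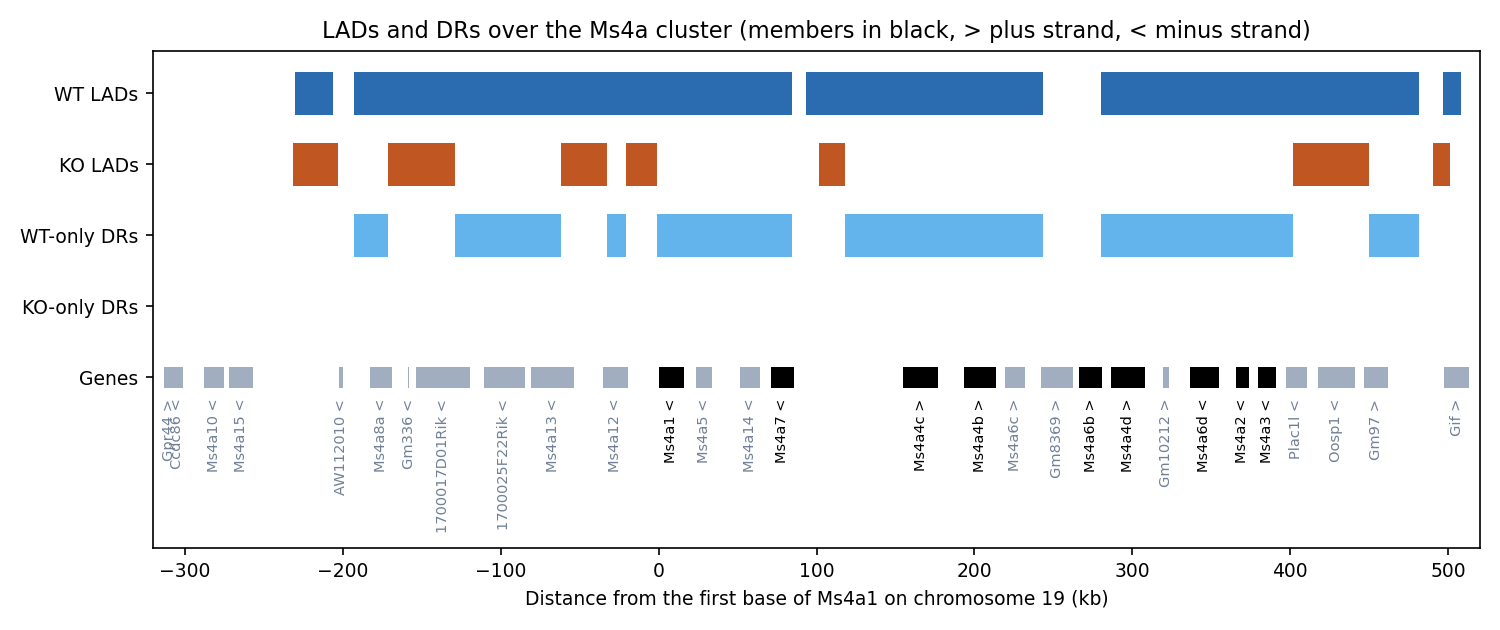
LADs, DRs and protein-coding genes around the cluster, with distance from the first base of Ms4a1 in kb on the x axis and 1 row for each list. WT LADs cover most of the members (black) in 3 blocks, while the KO row holds 1 LAD of 16.8 kb between Ms4a7 and Ms4a4c within the cluster and further KO LADs to either side of it, and the KO-only DR row is empty.

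From the first base of *Ms4a1* to the last of *Ms4a3* (11324654 to 11715341) the cluster measured 390.688 kb. WT LADs covered 88.2% of it (345 kb, in 3 LADs), and KO LADs covered 4.29% (16.8 kb, in 1 LAD). Of the WT LAD bases, 95.1% lay outside KO LADs, and 0 kb lay in a KO LAD alone. The single KO LAD (11425932 to 11442695) held no protein-coding gene and lay wholly within a WT LAD.

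*Ms4a1*, the gene of CD20, lies at 11324654 to 11340669 on the minus strand. WT LADs covered 100% of its 16.016 kb and KO LADs 0%, and all 7 of its exons were in a LAD of the WT alone. Its downstream end was 0.944 kb from the nearest KO LAD, which ended at 11323709, and its transcription start was 16.959 kb from it. *Ms4a1* was thus the member nearest to a KO LAD.

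*Ms4a7*, a gene expressed in macrophages, lies at 11395529 to 11410636 on the minus strand. The WT LAD covered 89.3% of its 15.108 kb and ended at 11409012, within the first exon (11408806 to 11409185) of the transcript used. The outermost start of the gene belongs to another transcript and lay 1.623 kb beyond that WT LAD, in no LAD of either genotype. All 7 exons touched a WT LAD alone, and the gene was 15.295 kb from the nearest KO LAD. The WT border therefore cut this gene near its start, and the start of the transcript used (11409185) also lay beyond that border.

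*Ms4a4c* (11479260 to 11501736, plus strand) and *Ms4a4b* (11518043 to 11538039, plus strand) are close copies, the latter known from T cells. Both were covered 100% by a WT LAD and 0% by a KO LAD, with 7 of 7 exons each in the WT LAD alone. *Ms4a4c* was 36.564 kb and *Ms4a4b* 75.347 kb from the nearest KO LAD. Both stand in the middle DR, to the right of the KO LAD inside the cluster.

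*Ms4a6b* (11591002 to 11605746, plus strand), a gene known from T cells, was the exception among the members. WT LADs covered 7.61% of its 14.745 kb, or 1.122 kb at its downstream end, and KO LADs 0%. Of its 8 exons only the last, from 11603978 to 11605746, touched a WT LAD, and the other 7 lay in no LAD of either genotype. Its start was 13.622 kb from a WT LAD and 135.299 kb from a KO LAD. The start of *Ms4a6b* was thus outside LADs in both genotypes, in the gap between the middle and the right WT LAD, and its PI call rests on the end of its last exon.

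*Ms4a4d* (11611291 to 11632957, plus strand) is the next gene and resumes the pattern. It was covered 100% in WT and 0% in KO, with 7 of 7 exons in the WT LAD alone, and was 93.344 kb from a KO LAD. *Ms4a6d* (11661094 to 11679339, minus strand), known from macrophages, had the same values of 100%, 0% and 7 of 7 exons, at 46.962 kb from a KO LAD. From here to the end of the cluster the distance to a KO LAD shortened from gene to gene.

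*Ms4a2* (11690013 to 11698209, minus strand) was covered 100% in WT and 0% in KO over its 8.197 kb, with 6 of 6 exons in the WT LAD alone, at 28.092 kb from a KO LAD. *Ms4a3* (11703987 to 11715341, minus strand), which encodes HTm4 of blood cell precursors, gave 100%, 0% and 5 of 5 exons, at 10.96 kb from a KO LAD. Counted over the members, 54 of 61 exons were in a LAD of the WT alone, 0 in a LAD of the KO, and 7 in no LAD. Those 7 exons were all of *Ms4a6b*.

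**Figure D2:**
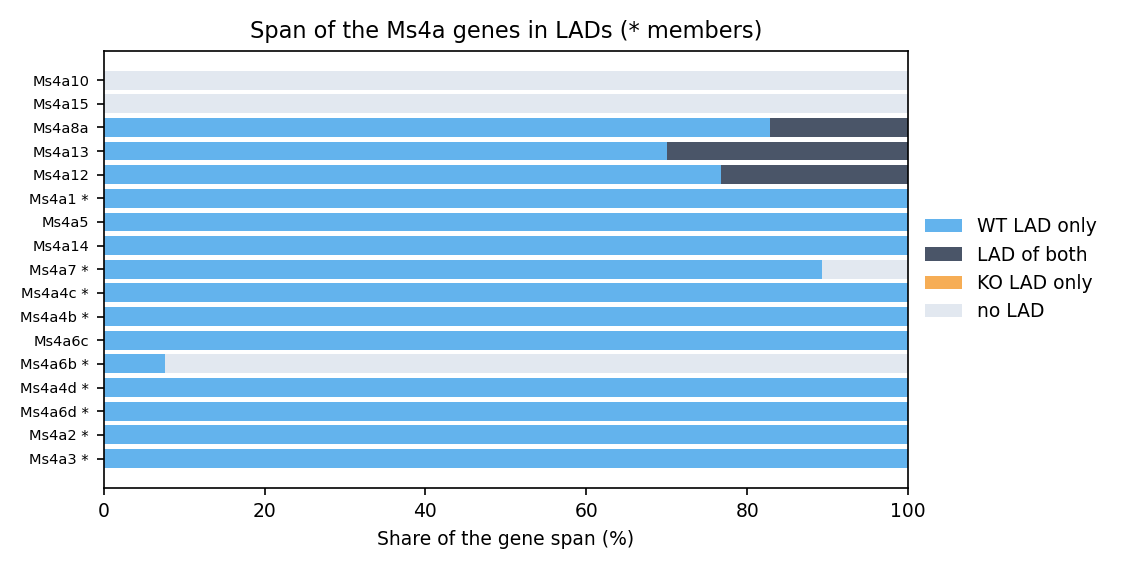
Share of each Ms4a gene span (x axis, %) in a LAD of the WT alone, of both genotypes, of the KO alone or in none, with genes in chromosome order and members starred. Among the members only Ms4a7 (89.3%) and Ms4a6b (7.61%) fall short of 100% in a WT LAD, and sequence in a LAD of both genotypes is seen only in Ms4a8a, Ms4a13 and Ms4a12.

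The 3 WT LADs over the members were compared with other long LADs. The first (11131768 to 11409012, 277 kb) had 67.2% of its bases outside KO LADs, the second (11418075 to 11567776, 150 kb) had 88.8%, and the last (11604625 to 11806144, 202 kb) had 76.0%. Among the 63 WT LADs of at least 100 kb on chromosome 19 they ranked 20, 2 and 10 by that share. The other 60 ranged from 8.53% to 100% with a median of 58.3%. On the other autosomes, the 2038 WT LADs of that length ranged from 0% to 96.5% with a median of 8.54%. All 3 thus lay above the median of the long WT LADs of chromosome 19 and within their range.

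**Figure D3:**
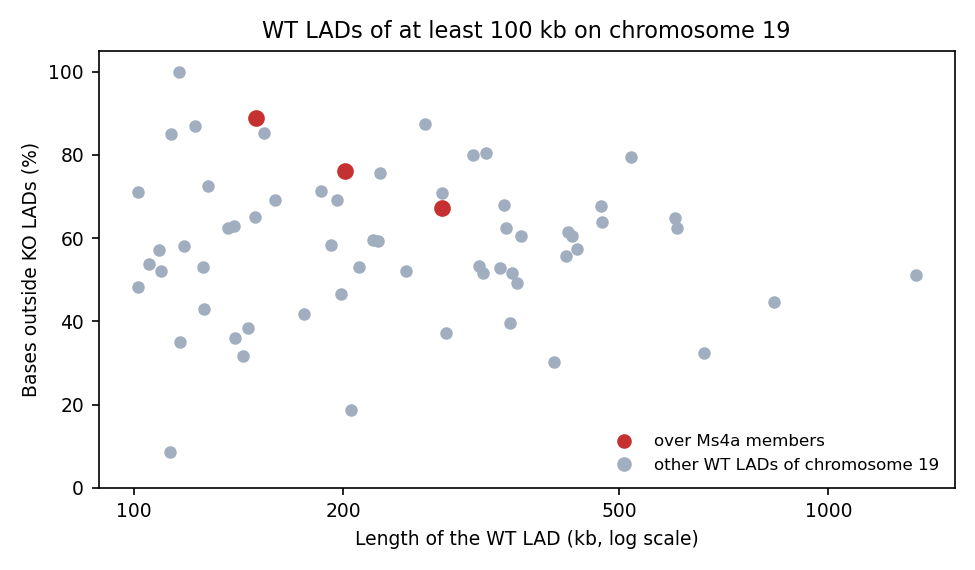
Length of each WT LAD of at least 100 kb on chromosome 19 (x axis, kb, log scale) against the share of its bases outside KO LADs (y axis, %), 1 point per LAD. The 3 LADs over Ms4a members (red) lie at 67.2%, 76.0% and 88.8%, in the upper part of the 63 points.

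The 3 WT-only DRs over members measured 85.3 kb (left), 125.1 kb (middle) and 121.7 kb (right), where the median WT-only DR of chromosome 19 was 28.0 kb. By length they ranked 32, 12 and 13 of the 370 on chromosome 19, and 56, 15 and 17 of all 7787. The middle and right DRs have no KO LAD between them and are parted only by the gap at *Ms4a6b*, which lay in no LAD in WT either. The WT LAD bases were therefore summed over each stretch that runs from a KO LAD to the next one along the chromosome. This ranking was chosen after the positions of the members were known. The stretch from 11442696 to 11726301 (283.606 kb), which holds 7 of the 9 members, contained 246.758 kb of WT LAD. It ranked 1 of 403 such stretches on chromosome 19 and 1 of 16055 in all, and the median stretch held 19.9 kb on chromosome 19 and 9.30 kb in all.

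The margin was small. The next stretch, at *Cyp2c67*, *Cyp2c68*, *Cyp2c40* and *Cyp2c69* (39643988 to 40027012), held 244.798 kb, the one at *Glis3* 240.188 kb and the one at *Trpm3* 224.456 kb. Of the 10 highest, 8 were on chromosome 19. The rank of the Ms4a stretch was 3 where LADs were joined across gaps of up to 20 kb or of up to 50 kb, and 4 with LADs of at least 20 kb. The stretch of *Ms4a1* and *Ms4a7* (11323710 to 11425931) held 93.16 kb of WT LAD and ranked 38 on chromosome 19 and 79 in all.

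The sequence on each side of the cluster held more KO LAD. The edges of the cluster were set by the list of members. That list leaves out *Ms4a13* and *Ms4a12*, which have bases in KO LADs and lie just to the left. The contrast with the left side thus follows in part from the choice of members. In the 100 kb to its left, WT LADs covered 100% and KO LADs 48.8%, and 51.2% of the WT LAD bases lay outside KO LADs. In the 100 kb to its right the values were 90.8%, 48.7% and 46.8%. Both were below the 95.1% of the cluster and below the 60.8% of chromosome 19, which was 60.3% without the cluster. KO LADs stood at both ends, from 11303943 to 11323709 and from 11726302 to 11774566, so the KO-free stretches ended within 10.96 kb of the outermost members. The KO LAD on the left reached to within 0.944 kb of *Ms4a1*.

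Other genes within the cluster followed their neighbours. The interval holds 14 protein-coding genes, and all 14 were PI with no KO LAD base, of 75 such genes on chromosome 19. *Ms4a5*, *Ms4a14*, *Ms4a6c* and *Gm10212* lay 100% in a WT-only DR. *Gm8369* lay there over 6.08% of its length and 93.9% in no LAD, as it shares the gap with *Ms4a6b*. This gap in the WT LADs was the one place in the cluster where genes lay largely outside LADs in both genotypes.

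The 8 Ms4a genes outside the list gave 6 PI and 2 II calls. To the left of *Ms4a1*, WT-only DRs took up 82.9% of *Ms4a8a*, 70.0% of *Ms4a13* and 76.8% of *Ms4a12*, and KO LADs took up the rest of each (17.1% of *Ms4a8a* and 23.2% of *Ms4a12*). *Ms4a10* and *Ms4a15*, the leftmost of the family, were II, at 45123 bp and 26543 bp from a WT LAD. The family thus ran from genes in no LAD at its left end, through partial overlap with KO LADs, to genes with no KO LAD base from *Ms4a1* rightwards. This holds for the gene spans only, as a KO LAD lay between *Ms4a7* and *Ms4a4c*. Over this left part (11036787 to 11324653) WT LADs covered 75.4% and KO LADs 41.6%, and 47.0% of the WT LAD bases lay outside KO LADs. On the other side, *Plac1l* had 34.1% in a WT-only DR and 65.9% in LADs of both genotypes, *Oosp1* was PP with 100% in both, and *Gm97* had 79.6% and 20.4%.

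Other tandem gene families were set beside the members. Of the 65 Olfr genes (odorant receptors) of chromosome 19, 32 were PI, 27 PP and 6 II. Of the 10 Slc22 genes (organic ion transporters) of chromosome 19, 4 were PI, 1 PP, 4 II and 1 AMB. The 27 Klr genes (lectin-like receptors of natural killer cells) of chromosome 6 gave 1 PI, 21 PP and 5 II calls. Over chromosome 19 there were 108 PI, 34 IP, 41 PP, 529 II and 12 AMB genes. The members differed from the Olfr genes in that none of the 9 was PP. They shared with many Olfr genes the lack of KO LAD. Of the 65 Olfr genes, 32 touched a WT LAD and no KO LAD, and the PI ones had a median of 100% of the span in WT-only DRs. The members differed from the Klr genes in the PI calls themselves. Over all protein-coding genes 5.43% were PI, and family and chromosome cannot be told apart in the contrast with Klr genes. These are counts over neighbouring genes of single library pairs, and the differences between families were not tested.

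**Figure D4:**
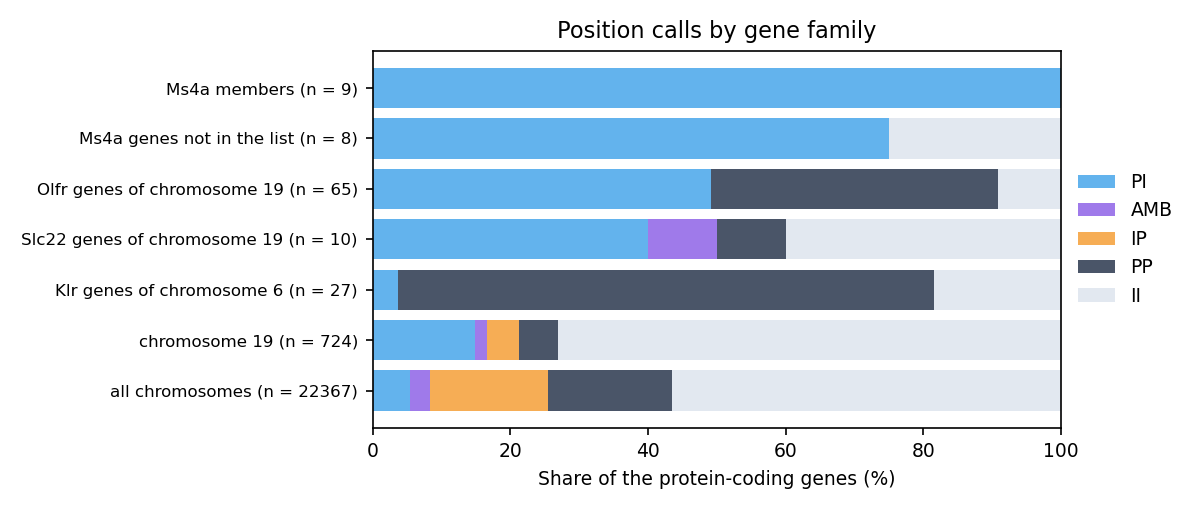
Share of genes (x axis, %) called PI, AMB, IP, PP or II in the members, in the other Ms4a genes, in 3 tandem families, on chromosome 19 and over all chromosomes, with the number of genes in brackets. The members are all PI, where 32 of 65 Olfr genes and 1 of 27 Klr genes are.

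Whether GATC spacing or repeated sequence differed at the members was read from the NCBIM37 sequence. The cluster had 1053 GATC sites, 2.70 per kb, with a median distance between sites of 254.5 bp, against 2.46 per kb and 271 bp on chromosome 19. Its GC content was 39.8%, against 42.7%. Among the members, *Ms4a6d* had the most sites per kb (73 sites in 18.246 kb) and *Ms4a6b* the fewest (31 sites in 14.745 kb). Sites were sparser than on chromosome 19 as a whole at *Ms4a1* (35 sites in 16.016 kb, a median of 428 bp apart), at *Ms4a7* (36 sites in 15.108 kb, a median of 291 bp apart), at *Ms4a6b* (a median of 386.5 bp apart) and in the gap at *Ms4a6b* (2.39 per kb, 343 bp). The part of site spacing in the LADs was not tested.

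The members are duplicates of one another, and reads from like copies can match several places, so their likeness was measured. Over the 36 pairs of members, identity of the coding sequences ran from 44.9% to 91.8% with a median of 49.0%. *Ms4a4c* and *Ms4a4b* shared 91.8%, *Ms4a4c* and *Ms4a4d* 85.5%, *Ms4a4b* and *Ms4a4d* 83.3%, and *Ms4a6b* and *Ms4a6d* 79.9%, with the next pair at 51.7%. The members thus hold 2 groups of close copies, and the others stand apart from them and from each other.

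Words of 50 bases that occur more than once on chromosome 19, on either strand, made up 8.64% of the cluster. Copies within the cluster were counted and copies on other chromosomes were not, so a low share does not mean that a gene is free of repeated sequence. The share over chromosome 19 as a whole was not computed. Their share was 33.7% in *Ms4a6d*, 21.1% in *Ms4a4c* and 17.4% in *Ms4a4b*. It was 5.24% in *Ms4a4d*, 3.11% in *Ms4a6b*, 1.73% in *Ms4a7*, 1.69% in *Ms4a1*, 1.28% in *Ms4a2* and 0.212% in *Ms4a3*. In the KO LAD inside the cluster the share was 13.3%, and in the gap at *Ms4a6b* it was 6.77%. How reads with several matches were treated is not given in the sources used here, and its part in the LADs was not tested.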

How the data were processed

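Reads were mapped to mm9 by the authors (BWA is named in the submitters' processing notes, with no version), who took the log2 ratio of Dam-LaminB1 over Dam only for each DpnI fragment, called LADs by segmentation with DNAcopy and subtracted the LADs of WT and KO to give DRs. The deposited lists hold start and end coordinates with no ratio, score or depth, so no interval for counting error can be given. Coordinates were taken as counted from 0, which the lists do not state. limma is also named in those notes, with no role stated, and the study's text gives it for microarray expression data, which were not used here. Repeating the subtraction gave 0 DRs that differed from the lists.

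Gene spans, exons and starts came from GENCODE vM1 on NCBIM37, the assembly of mm9, in which no LAD passed a chromosome end. Starts are printed from 1. Overlaps were computed in Python 3.11.15 with own code, tested on simulated data in 100 cases for each of 5 steps, with 0 errors. Exons and genes were taken as overlapped by at least 1 base. Each library was a group of its own, mapped by its label. Named genes were the members, the other Ms4a genes, all protein-coding genes between the members and the 3 nearest on each side. Figures were drawn with matplotlib 3.10.9. Members, lists and comparisons were chosen with earlier results of these data known. Repeat annotation and protein sequences were not used here, and sequence before the gene starts is not reported here. Alternatives (other overlaps, DR and LAD lengths, joined LADs, other intervals and exons) are in the closing section.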

Additional observations from a re-analysis of the deposited data

How the results depend on the processing

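Of 121 alternative values, 102 stayed within a factor of 1.5 of the reported one and 19 moved. Many of those that stayed were counts of 0 or shares of 100% under both settings, so the tally does not measure how firm the results are. The members called II rose from 0 to 1 where at least 10% or 50% of the span had to lie in a DR (*Ms4a6b*), and to 2 by the transcription start alone (*Ms4a6b* and *Ms4a7*). KO LAD coverage of the cluster went to 0% in 0 KO LADs with LADs of at least 20 kb, as the KO LAD inside it is shorter, and likewise over the member spans only. It was 19.3% in 5 KO LADs with 100 kb added on each side, and 20.1% in 5 KO LADs over all Ms4a genes. With gaps of up to 50 kb closed, the cluster had 1 WT LAD and 100% of *Ms4a6b* lay in a WT-only DR. Over all exons of all transcripts (118), 101 were in a WT LAD alone and 17 in none. Alternatives for the stretch between KO LADs were chosen after seeing the data: it held 388 kb of WT LAD and ranked 4 with LADs of at least 20 kb, and ranked 3 with LADs joined up to 20 kb and up to 50 kb. No paired analysis was possible because the result comes from no test and each group is 1 library. With 1 pooled library pair per genotype, no library could be left out, and genotype, pool and library cannot be told apart.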

Other observations

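Genes that mark the blood cells in which Ms4a genes are known were placed in the same lists. Of 28 such genes, 1 was PI, 5 IP, 3 PP, 18 II and 1 AMB. Over all protein-coding genes 5.43% were PI, 17.1% IP, 17.9% PP and 56.6% II. The PI gene was *Emr1* (F4/80 of macrophages), of which a WT-only DR took up 35.9% and a KO LAD 64.1%. *Pax5* of B cells, *Kit*, *Mcpt4* and *Hdc* of mast cells and *Ctsg* of granulocyte precursors were IP. KO-only DRs took up 100% of *Mcpt4* and *Ctsg*, 53.3% of *Hdc*, 14.7% of *Kit* and 11.0% of *Pax5*, and a LAD of each genotype touched *Kit*. Of 10 hepatocyte genes, 9 were II and 1, *Cps1* of the urea cycle, was PI, by 9.38% of its length. These positions say nothing about transcription, and differences between the lists were not tested.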
